A study of Mus musculus with 8 samples.

Results

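Acp5, Gpnmb, Trem2, Spp1, Ctsk, Atp6v0d2, Cd9 and Chil3 are 8 genes linked to lipid-associated and osteoclast-like macrophages, taken by name from the 36333 genes of the expression table. They were picked from how they differed between the genotypes compared here, with hSKP2-KI replicate 2 viewed apart, so their own differences are given as a description with no test. Expression was measured by bulk RNA-seq in ventral prostate lobes of 12-month-old FVB/N male mice, 4 hSKP2-KI and 4 wild type (WT), with a library for each mouse. In the hSKP2-KI mice a P2A-linked human SKP2 coding sequence was inserted by CRISPR/Cas9 into exon 1 of the endogenous probasin gene on the X chromosome, so that the androgen-driven probasin promoter of prostate luminal epithelium controls it. WT mice lacked the insert, and the labels give no treatment and no other allele for either group. The founder line of the sequenced mice is not given in the sources used here. SKP2 is the substrate-recognition subunit of an SCF ubiquitin ligase that degrades cell cycle inhibitors such as p27.

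Macrophages that take up large amounts of lipid or cell debris switch on a shared set of genes for lipid sensing, lysosomal digestion and matrix breakdown, and are found in obese fat, atherosclerotic plaques, injured nerve and some tumors. Osteoclasts, the macrophage relatives that resorb bone, use many of the same genes, because they acidify and digest a sealed space outside the cell. TREM2 is a lipid-sensing surface receptor that signals through the adaptor TYROBP, GPNMB is a lysosomal and surface glycoprotein, and CD9 is a tetraspanin found on many cell types, epithelium included. ACP5 (tartrate-resistant acid phosphatase), the collagen-cutting protease cathepsin K (Ctsk) and the V-ATPase subunit d2 (Atp6v0d2) are classical osteoclast products. SPP1 (osteopontin) and CHIL3 (Ym1, a chitinase-like lectin) are secreted.

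The label of a lipid-associated, osteoclast-like macrophage program did not describe the 8 genes as a single pattern. Gpnmb, Trem2, Ctsk and Atp6v0d2 peaked in hSKP2-KI replicate 2. Acp5 and Cd9 were higher in each of the 4 hSKP2-KI mice by a similar amount. Spp1 was highest in a WT mouse, and Chil3 was detected above trace level only in hSKP2-KI replicates 3 and 4. The genes are therefore called here by their names.

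The promoter windows of 5 of these genes are shown because they hold the few matches to motifs of factors active in macrophages and osteoclasts. They do not cover the pattern of Chil3. Of the 8 genes, 7 had a window in the RefSeq promoter table (GRCm38.p6), with 10 start sites in all, each window running from 250 bases before to 50 bases after the start. Capitals mark matches, on either strand, to the MITF/TFE M-box TCATGTG, the E-box CACGTG, the AP-1 site TGANTCA or the PU.1 core GAGGAA, and none of the printed matches overlap. Acp5 is the third of its 3 start sites (chr9:22130549-22130848, minus strand), Gpnmb is chr6:49036268-49036567 (plus strand), Trem2 is chr17:48346151-48346450 (plus strand), Ctsk is chr3:95498960-95499259 (plus strand), and Spp1 is the first of its 2 start sites (chr5:104434861-104435160, plus strand).
Acp5: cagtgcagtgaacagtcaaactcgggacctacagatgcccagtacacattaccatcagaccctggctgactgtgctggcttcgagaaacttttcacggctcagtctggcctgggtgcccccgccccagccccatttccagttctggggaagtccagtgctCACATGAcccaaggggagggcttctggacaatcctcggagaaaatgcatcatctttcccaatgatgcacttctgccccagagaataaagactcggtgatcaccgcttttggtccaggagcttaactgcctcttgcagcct
Gpnmb: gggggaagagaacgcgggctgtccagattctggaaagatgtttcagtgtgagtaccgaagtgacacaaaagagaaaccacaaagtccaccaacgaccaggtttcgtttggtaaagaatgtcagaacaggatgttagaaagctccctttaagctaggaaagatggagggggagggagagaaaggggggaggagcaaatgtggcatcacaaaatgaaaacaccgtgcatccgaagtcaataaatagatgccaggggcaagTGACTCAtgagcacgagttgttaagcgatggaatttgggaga
Trem2: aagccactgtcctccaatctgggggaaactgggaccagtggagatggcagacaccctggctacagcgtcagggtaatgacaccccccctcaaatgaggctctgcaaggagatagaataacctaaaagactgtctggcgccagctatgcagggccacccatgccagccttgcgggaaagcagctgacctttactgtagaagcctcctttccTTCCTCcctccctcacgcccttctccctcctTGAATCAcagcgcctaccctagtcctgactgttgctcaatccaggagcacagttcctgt
Ctsk: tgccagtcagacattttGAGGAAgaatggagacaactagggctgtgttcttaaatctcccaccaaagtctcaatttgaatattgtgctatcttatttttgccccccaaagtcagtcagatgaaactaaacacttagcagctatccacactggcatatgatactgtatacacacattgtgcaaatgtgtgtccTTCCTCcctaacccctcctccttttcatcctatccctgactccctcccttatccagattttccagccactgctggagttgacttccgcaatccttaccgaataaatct
Spp1: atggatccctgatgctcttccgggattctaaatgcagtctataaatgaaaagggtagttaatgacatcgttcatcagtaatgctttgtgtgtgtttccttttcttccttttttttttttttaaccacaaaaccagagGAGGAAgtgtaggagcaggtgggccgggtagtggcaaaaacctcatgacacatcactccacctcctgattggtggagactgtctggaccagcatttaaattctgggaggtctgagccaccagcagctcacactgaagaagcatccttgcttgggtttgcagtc

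Acp5 held an M-box, on the reverse strand, with its first base at -90 from the start site. AP-1 letters stood at +9 in Gpnmb and at -9 in Trem2. PU.1 core letters stood at -40 in Trem2, at -233 and -58 in Ctsk and at -113 in Spp1. No searched letters were found in the windows of Cd9 or Chil3, nor at the other start sites of Acp5 and Spp1. Among all 32851 promoter windows of the table, 3.77% held the M-box, 7.15% the E-box, 7.81% the AP-1 site and 28.3% the PU.1 core.

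The libraries carried their labels and their tissue. Skp2 measured 37.3 to 60.6 TPM (transcripts per 1000000) in hSKP2-KI and 1.05 to 2.27 TPM in WT; whether reads of the human coding sequence are counted in this mouse row is not given in the sources used here. Pbsn, the gene that carries the insert, measured 93.0 to 174 TPM in hSKP2-KI and 3980 to 9232 TPM in WT. The ventral prostate secretory genes Sbp and Spink1 were abundant in all 8 mice, but lower in every hSKP2-KI mouse than in any WT mouse. Sbp measured 198342 to 218476 TPM in hSKP2-KI and 232706 to 256865 TPM in WT. Spink1 measured 50787 to 75952 TPM in hSKP2-KI and 89902 to 119903 TPM in WT. Each library sums to the same total, and over the 13080 tested genes the log2 fold change had a median of 0.23 rather than 0. That median was -0.01 after median-ratio scaling and 0.01 without the 20 most abundant genes. The scaled difference is therefore given beside that of each of the 8 genes but Chil3, for which neither is given. TPM keep no read depth, and 5 of 5 mitochondrial protein genes looked up were listed at 0 throughout, so a 0 is reported only as listed.

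Trem2, the lipid receptor, measured 5.06, 40.9, 10.0 and 4.66 TPM in hSKP2-KI replicates 1 to 4 and 2.36, 4.76, 3.82 and 4.37 TPM in WT replicates 1 to 4. Replicate 2 stood far above every other mouse, replicate 3 was next, and hSKP2-KI replicate 4 lay below WT replicate 2, so the groups overlapped. The group means were 15.2 ± 17.3 and 3.83 ± 1.05 TPM (SD, n = 4), a difference of 1.25 in mean log2(TPM + 1), or 1.02 after median-ratio scaling. Without hSKP2-KI replicate 2 it was 0.61, and 0.40 with scaling as well. Replicate 2 held 6.21 times the mean of the other 3 hSKP2-KI mice.

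Gpnmb, the lysosomal glycoprotein, measured 13.01, 68.37, 15.12 and 9.696 TPM in hSKP2-KI and 7.002, 8.191, 7.354 and 9.811 TPM in WT. As for Trem2, replicate 2 was alone at the top, and the lowest hSKP2-KI mouse fell just under the highest WT mouse. The means were 26.5 ± 28.0 and 8.09 ± 1.25 TPM (SD, n = 4). The difference in mean log2(TPM + 1) was 1.16, or 0.92 after median-ratio scaling and 0.57 without replicate 2, and replicate 2 held 5.42 times the mean of the other hSKP2-KI mice.

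Cd9, the tetraspanin, measured 247, 254, 241 and 277 TPM in hSKP2-KI and 167, 161, 162 and 178 TPM in WT. The groups did not overlap, the spread within each was small, and replicate 2 was not set apart. The means were 255 ± 15.7 and 167 ± 7.77 TPM (SD, n = 4), a ratio of 1.53. The log2 difference was 0.61 with or without replicate 2 and 0.34 after median-ratio scaling. Cd9 was the most abundant of the 8 genes in both genotypes, and TPM, being per transcript length, can be compared between genes.

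Acp5, the acid phosphatase, measured 44.4, 54.0, 51.6 and 46.9 TPM in hSKP2-KI and 14.3, 12.2, 10.7 and 11.3 TPM in WT. All 4 hSKP2-KI mice lay well above all WT mice, and replicate 2 was highest by a narrow margin. The means were 49.2 ± 4.35 and 12.1 ± 1.59 TPM (SD, n = 4), a ratio of 4.07. The log2 difference was 1.94, the largest of the 8 genes on the log2(TPM + 1) scale. It stayed at 1.90 without replicate 2 and at 1.69 after median-ratio scaling. The ratio of the means was larger for Atp6v0d2, at 5.13.

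Ctsk, which encodes cathepsin K, measured 5.50, 24.8, 9.26 and 8.09 TPM in hSKP2-KI and 2.64, 5.36, 3.87 and 4.25 TPM in WT. Replicate 2 was again the highest, and the lowest hSKP2-KI mouse exceeded the highest WT mouse by little. After median-ratio scaling the groups overlapped. The means were 11.9 ± 8.72 and 4.03 ± 1.12 TPM (SD, n = 4), and the log2 difference was 1.18, or 0.95 scaled and 0.78 without replicate 2.

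Atp6v0d2, the d2 subunit of the proton pump, measured 2.05, 8.33, 1.54 and 1.93 TPM in hSKP2-KI and 0.331, 0.825, 0.295 and 1.25 TPM in WT. The groups did not overlap on either scale, and replicate 2 held 4.53 times the mean of the other hSKP2-KI mice. The means were 3.46 ± 3.25 and 0.675 ± 0.452 TPM (SD, n = 4), and the log2 difference was 1.23, or 1.09 after median-ratio scaling and 0.80 without replicate 2. Its paralog Atp6v0d1, the broadly expressed d1 subunit, measured 133 to 141 TPM in hSKP2-KI and 107 to 123 TPM in WT. As a share of the summed TPM of d1 and d2, d2 was 5.68% in replicate 2, 1.14% to 1.44% in the other hSKP2-KI mice and 0.275% to 1.02% in WT. The longest protein-coding transcripts of the pair align with 67.9% identity.

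Spp1, which encodes osteopontin, measured 0.860, 3.99, 1.28 and 1.21 TPM in hSKP2-KI and 9.11, 4.77, 4.20 and 1.35 TPM in WT. It ran the other way from the genes above, with WT replicate 1 highest, but hSKP2-KI replicate 2 reached into the WT range. The means were 1.84 ± 1.45 and 4.86 ± 3.21 TPM (SD, n = 4), and the log2 difference was -0.98, or -1.17 after median-ratio scaling. Without replicate 2 it was -1.29 and the groups no longer overlapped. Even here replicate 2 was the highest hSKP2-KI mouse, at 3.58 times the mean of the other 3.

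Chil3, the chitinase-like lectin, was listed at 0, 0.127, 4.24 and 5.40 TPM in hSKP2-KI and at 0 in all 4 WT mice. The other 7 genes reached the low-value limit for testing, 1 TPM or more in 4 or more of the 8 mice, and Chil3 did not. The mice with Chil3 were replicates 3 and 4, not replicate 2. Its near-identical neighbour Chil4, whose longest protein-coding transcript is 94.2% identical over 1543 aligned columns, was listed at 0 in all 8 mice, so the split of reads between the pair is uncertain.

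**Figure D1:**
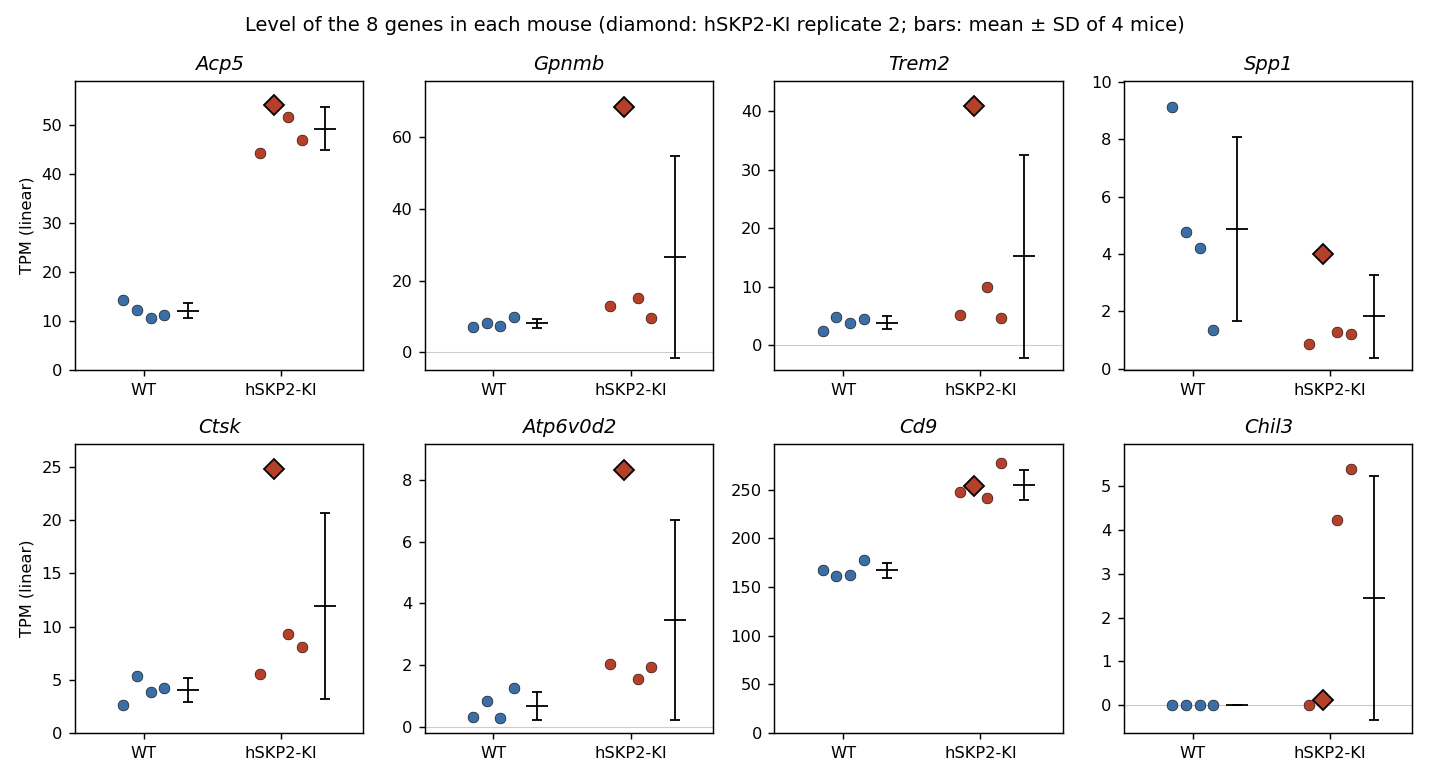
TPM of the 8 genes in each mouse on linear axes, a panel per gene; circles are mice, the diamond is hSKP2-KI replicate 2, and the black bar is the mean ± SD of 4 mice. Trem2, Gpnmb, Ctsk and Atp6v0d2 are led by the diamond, Acp5 and Cd9 separate the genotypes in all mice, Spp1 is highest in a WT mouse at 9.11 TPM, and Chil3 reaches 5.40 TPM in a different hSKP2-KI mouse.

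Of the 8 genes, 4 (Acp5, Ctsk, Atp6v0d2 and Cd9) lay higher in every hSKP2-KI mouse than in any WT mouse, against a background of 34.0% of the 13080 tested genes, and 4 overlapped. None lay wholly below WT (background 1.03%). After median-ratio scaling 3 genes lay above (background 10.3%) and none below (background 8.91%), and without replicate 2, on TPM as deposited, 4 lay above (background 37.3%) and 1, Spp1, below (background 1.33%). The genes were chosen on this contrast, so nothing is read from these counts. The median log2 difference of the 8 genes was 1.20 beside 0.23 for all tested genes, and 0.70 beside 0.23 without replicate 2.

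The order of levels differed between genotypes. In WT it ran Cd9, Acp5, Gpnmb, Spp1, Ctsk, Trem2, Atp6v0d2 and Chil3, and the ranges of Gpnmb, Spp1, Ctsk and Trem2 overlapped each with the next. In hSKP2-KI, Cd9 stayed first and Acp5 second, while Spp1 came last with a mean of 1.84 TPM. There, Cd9 was separated from the next gene, and the ranges of all other neighbours overlapped. Without replicate 2, Acp5 at 44.4 to 51.6 TPM and Gpnmb at 9.70 to 15.1 TPM also stood apart from their neighbours, as did Atp6v0d2 from Spp1.

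Replicate 2 was the highest of the 8 mice for 5 of the genes (Acp5, Gpnmb, Trem2, Ctsk and Atp6v0d2), and among all tested genes it was the highest for 27.5%. Its distance from the rest differed by gene. With 1 added to each TPM, its level was 4.30 times the next highest mouse for Gpnmb, 3.80 times for Trem2, 3.06 times for Atp6v0d2 and 2.51 times for Ctsk. For Acp5 the ratio was 1.05, and for Cd9, Spp1 and Chil3 other mice were higher.

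Across the table, 7 genes measured at least 5 TPM in replicate 2 and at least 4 times the highest other mouse, after adding 1 to each value. Gpnmb was the only one of the 8 genes among them. First was Mmp12, the macrophage elastase, at 52.4 TPM in replicate 2, at most 3.07 TPM in other hSKP2-KI mice and at most 0.358 TPM in WT. Next came the acute-phase gene Saa3 (31.0 TPM), the sheddase Adam8 (9.42 TPM) and the lectin Lgals3 (139 TPM, with 29.6 TPM the next highest mouse). Rgs1, a regulator of G-protein signaling in leukocytes, reached 6.88 TPM, and the RNA gene Rn7s2 57.7 TPM. The same count was 5 in hSKP2-KI replicate 1, 0 in replicate 3, 6 in replicate 4 and 0 to 1 in the WT mice, so a few genes that stand apart were not particular to replicate 2.

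**Figure D2:**
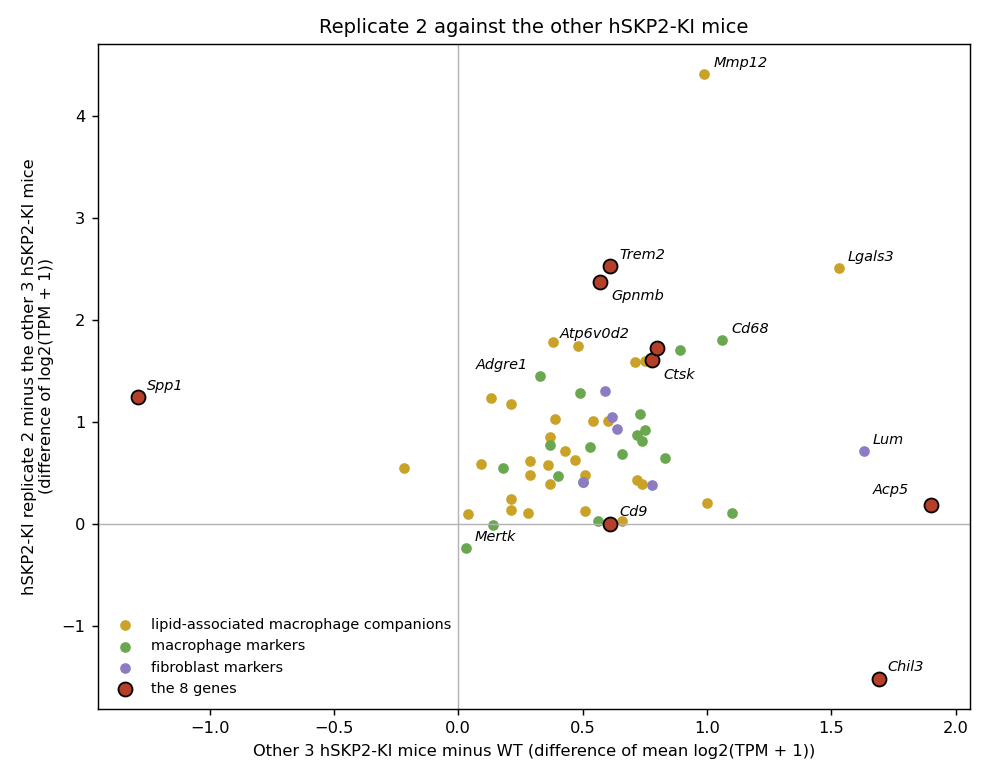
Each point is a gene; the horizontal axis is the difference in mean log2(TPM + 1) between the other 3 hSKP2-KI mice and WT, and the vertical axis is hSKP2-KI replicate 2 minus those 3 mice. Trem2, Gpnmb, Atp6v0d2 and Ctsk sit high beside Lgals3 and Cd68 and below Mmp12, Acp5 and Cd9 sit near 0 on the vertical axis, and Spp1 lies to the left at -1.29.

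Over the 8 mice, Gpnmb, Trem2, Ctsk and Atp6v0d2 followed each other with Pearson's r of 0.91 to 0.98, and Acp5 and Cd9 with r = 0.96. Spp1 had a negative r with all the others, and r between Chil3 and Gpnmb was 0.01. These values describe 8 mice of 2 genotypes that share a fixed TPM total. Replicate 2 was the highest mouse for each gene of the first group, and r without it was not computed. By the same measure over 10484 genes, those most like the mean of the 8 genes were Cldn1 (r = 0.989), Col4a1, Ednra, Il33, Serpina3n, Vim, Tpm4, Mgp, Cd248 and Fes (r = 0.979). Among the 10, Col4a1 is a basement membrane collagen, Mgp a matrix protein and Cd248 a pericyte marker. The others, with Cldn1 at the top, were not sorted by cell type, so no cell type is read from the 10.

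Ctsk was most like Adamts2, Col6a2 and Col5a1 (r = 0.989 to 0.996), which build or process collagen matrix. Trem2 was most like Col1a1 (r = 0.984), Slc37a2 and Vsig4. Vsig4, a complement receptor of resident macrophages, measured 5.17 TPM in replicate 2, 1.14 to 2.16 TPM in other hSKP2-KI mice and 0.531 to 1.08 TPM in WT. Gpnmb was most like D630003M21Rik, Ppic and Trappc3, and Atp6v0d2 like Tmem43, Atf5 and Ppic. The nearest to Acp5 were Rab23, Tmsb10 and Ldhd. Cd9 was most like Fth1, which encodes ferritin heavy chain, Nt5e and Skp2 (r = 0.993). The closest to Spp1 reached only r = 0.935 (LOC108168734), followed by C2cd4b and Fam105a.

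In bulk tissue, more cells of a type and more RNA per cell cannot be told apart. The macrophage marker list (20 genes, all above 0 in at least a mouse) summed to 967 TPM in replicate 2, 399 to 470 TPM in the other hSKP2-KI mice and 174 to 353 TPM in WT. Of its 18 tested genes, 13 passed the test as higher in hSKP2-KI and none as lower. Among all tested genes 33.9% passed, 32.7% as higher and 1.23% as lower. After median-ratio scaling 1 macrophage gene passed, as higher (background 6.92% higher and 4.25% lower), and without replicate 2, on TPM as deposited, 9 did (background 22.3% higher). The gene that passed after scaling was Lyve1 (limma adjusted p = 0.0425). It measured 14.2 TPM in replicate 2, 8.69 to 17.2 TPM in other hSKP2-KI mice and 2.95 to 8.55 TPM in WT. Replicate 2 thus did not lead for Lyve1, and the part of macrophages in its level was not tested. Without WT replicate 1, on TPM as deposited, 7 macrophage genes passed. Without that mouse 2993 of all 13080 tested genes passed, against 4433 with all mice. Cd68 measured 59.1 TPM in replicate 2, 14.8 to 18.1 TPM in other hSKP2-KI mice and 4.81 to 10.1 TPM in WT (log2 fold change 1.51, SE 0.37, limma adjusted p = 0.0132, and 0.0596 after median-ratio scaling). Lysozyme (Lyz2) was at 419, 117 to 146 and 44.2 to 101 TPM in the same order (log2 fold change 1.31, adjusted p = 0.0229, and 0.0696 without WT replicate 1). With scaling and without replicate 2, a setting chosen after the data were seen, Cd68 passed (limma adjusted p = 0.0312) and Lyz2 did not (0.112). Adgre1, the F4/80 antigen, did not pass (log2 fold change 0.69, SE 0.41, adjusted p = 0.189).

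Set against 7 macrophage genes in the same mouse (the mean log2(TPM + 1) of Adgre1, Csf1r, Mertk, Fcgr1, C1qa, C1qb and C1qc), the 8 genes differed in whether the genotypes separated. That reference itself was 4.83 in replicate 2, 3.98 to 4.18 in other hSKP2-KI mice and 3.18 to 4.06 in WT. Acp5 relative to it was 0.95 to 1.53 in hSKP2-KI and -0.52 to 0.76 in WT, with no overlap. Spp1 relative to it was -3.08 to -2.51 in hSKP2-KI and -2.25 to 0.16 in WT, the reverse, again with no overlap. Gpnmb and Trem2 still led in replicate 2, at 1.29 and 0.56, while the other hSKP2-KI mice, at -0.63 to -0.17 and -1.55 to -0.72, lay beside WT mice that reached -0.05 for Gpnmb and -1.06 for Trem2. For Ctsk and Atp6v0d2 the difference of the means was 0.52 and 0.57 and the groups overlapped. The median of this difference over the 8 genes was 0.54, and it turned to -0.31 with Cd68 alone as the reference. Cd9 relative to the reference differed by -0.05 between the means and was lowest in replicate 2.

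**Figure D3:**
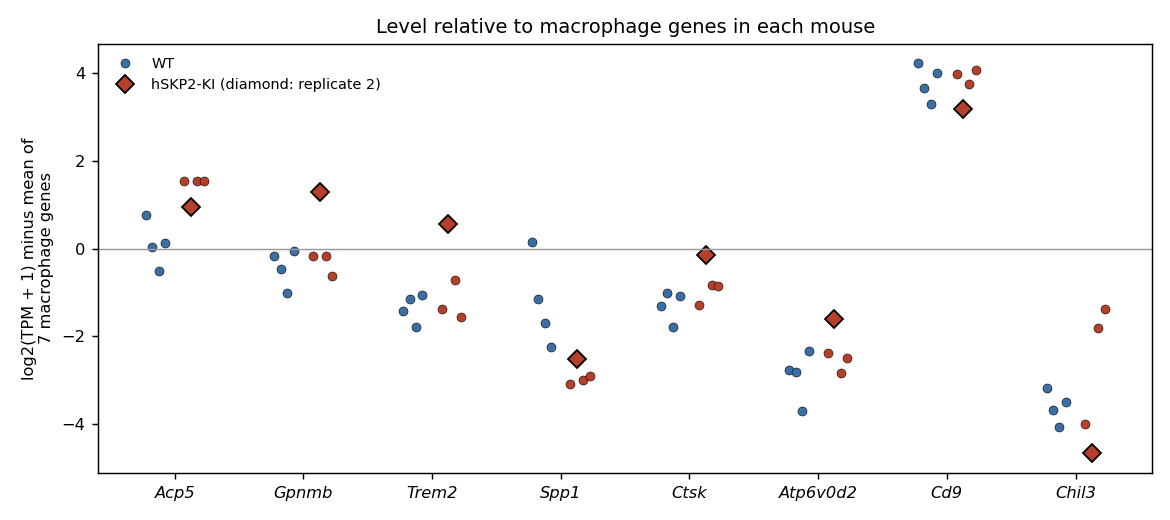
Each gene's log2(TPM + 1) minus the mean of 7 macrophage genes in the same mouse; blue circles are WT, red symbols hSKP2-KI, and the diamond replicate 2. Acp5 (0.95 to 1.53 against -0.52 to 0.76) and Spp1 (-3.08 to -2.51 against -2.25 to 0.16) separate the genotypes in opposite directions, and the diamond leads for Gpnmb, Trem2, Ctsk and Atp6v0d2.

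The other genes of the lipid-associated macrophage program were read from a list of 32, of which 31 matched the table (Plin2 did not) and 26 were tested. As higher in hSKP2-KI 17 passed (background 32.7%), none as lower (1.23%), and 9 did not pass, with a list median log2 fold change of 0.59 beside 0.23 for all tested genes. After median-ratio scaling 4 passed (Lgals3, Soat1, Nceh1 and Axl, background 6.92%). On TPM as deposited 13 passed without replicate 2 (background 22.3%) and 10 without WT replicate 1 (2993 of all 13080 tested genes). Of the 26 tested genes, 23 were highest in replicate 2, and the list summed to 5293 TPM there, 3503 to 3979 TPM in the other hSKP2-KI mice and 2620 to 3017 TPM in WT.

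Lgals3 (galectin-3) measured 139 TPM in replicate 2, 20.2 to 29.6 TPM in other hSKP2-KI mice and 6.23 to 10.2 TPM in WT. Its log2 fold change of 2.16 (SE 0.49) passed the test as deposited (adjusted p = 0.00943), after median-ratio scaling (0.0407) and without replicate 2 (0.00110). Tyrobp, the TREM2 adaptor, rose by 1.15 (SE 0.32, adjusted p = 0.0206). Lipa, the lysosomal acid lipase that frees cholesterol from stored esters, rose by 1.10 (SE 0.32, adjusted p = 0.0240). Neither Lipa nor Tyrobp passed after median-ratio scaling (0.116 and 0.104) or without WT replicate 1 (0.0693 and 0.0598). Both passed without replicate 2 (0.00869 and 0.00613), and with scaling as well (0.0498 and 0.0457). Soat1, which makes those esters, rose by 1.05 (adjusted p = 0.00756, and 0.0475 scaled) with replicate 2 at 12.4 TPM close to the other hSKP2-KI mice at 9.77 to 11.5 TPM. Apoe, the lipid carrier, rose by 0.63 (adjusted p = 0.00449, and 0.0956 scaled). Lpl, lipoprotein lipase, did not pass (log2 fold change 0.43, SE 0.42, adjusted p = 0.411), nor did the fatty acid binding protein Fabp5 (-0.08, SE 0.18, adjusted p = 0.713).

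Mmp12 and Itgax were below the filter and were compared by two-sided exact permutation tests, in a family of 11 genes. Mmp12 gave an exact permutation p = 0.143 (adjusted 0.314), with hSKP2-KI replicate 4, at 0.157 TPM, below all WT mice. Itgax (CD11c) measured 0.854, 5.92, 0.819 and 1.44 TPM in hSKP2-KI and 0.323 to 0.782 TPM in WT. The groups of Itgax did not overlap, giving the smallest p that 70 assignments allow, 0.0286 (adjusted 0.157 by exact permutation). After median-ratio scaling they overlapped. Itgax met the rule for being named through its high level in hSKP2-KI replicate 2, a mouse of the group tested. No conclusion is therefore drawn from its p.

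Of 28 osteoclast program genes 21 were tested, of which 9 passed as higher (background 32.7%) and 1 as lower (1.23%), with 3 and 2 after median-ratio scaling (background 6.92% and 4.25%). Without hSKP2-KI replicate 4 the total was 6, and 3007 of all 13080 tested genes passed. The lower gene was Cthrc1 (-0.32), a secreted collagen-linked protein, joined after scaling by Sbno2. The receptor for RANK ligand, Tnfrsf11a, rose from 3.28 to 4.45 TPM in WT to 5.50 to 6.03 TPM in hSKP2-KI (log2 fold change 0.49, SE 0.11, adjusted p = 0.00979, and 0.111 after median-ratio scaling). RANK ligand itself, Tnfsf11, was at most 0.174 TPM in any mouse. The growth factor Csf1 rose by 0.65 (adjusted p = 0.0212, 0.105 scaled and 0.0568 without hSKP2-KI replicate 4). The master regulator Nfatc1 did not pass (log2 fold change 0.26, SE 0.12, adjusted p = 0.114), nor did Mitf (0.11, SE 0.16, adjusted p = 0.594), the decoy receptor Tnfrsf11b (0.20, adjusted p = 0.308), Mmp9 (0.39, adjusted p = 0.107, but 0.0471 without WT replicate 3) or Itgb3 (0.27, adjusted p = 0.227).

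Several genes known mainly from osteoclasts were at or near 0. Calcr, the calcitonin receptor, was listed at 0 in 7 mice and at 0.0376 TPM in hSKP2-KI replicate 4. Ocstamp, a fusion gene, was at most 0.149 TPM and Oscar, a collagen receptor, at most 0.422 TPM, both in replicate 2. Dcstamp, the main fusion gene, measured 0.651, 1.66, 0.397 and 0.687 TPM in hSKP2-KI and 0.177 to 0.462 TPM in WT (exact permutation p = 0.0571, adjusted 0.210). Tfec, a MITF relative, was at most 0.324 TPM (exact permutation p = 0.0286, adjusted 0.157). Carbonic anhydrase 2 (Car2), which many epithelia also make, rose by 1.59 (SE 0.34, adjusted p = 0.00789) with replicate 2 at 28.6 TPM below replicates 1 and 4, Jdp2 by 1.16 (adjusted p = 0.00253) and the membrane protease Mmp14 by 0.71 (adjusted p = 0.00430), and all 3 passed after median-ratio scaling (0.0323, 0.0111 and 0.0316).

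Acid and proteases were read from the V-ATPase subunits and from the cathepsins and lysosomal hydrolases. Of 22 tested V-ATPase subunits 10 passed as higher (background 32.7%) and none as lower, with a median log2 fold change of 0.26 beside 0.23 for all tested genes, and 2 after median-ratio scaling (background 6.92%). Those 2 were Atp6v0e2 (log2 fold change 0.95, adjusted p = 0.000731, and 0.00972 scaled) and Atp6ap2 (0.58, adjusted p = 0.00363, and 0.0239 scaled). Tcirg1, the a3 subunit that osteoclasts use, did not pass (0.43, SE 0.16, adjusted p = 0.0629, but 0.0177 without hSKP2-KI replicate 3). Atp6v0d1 passed as deposited (0.21, adjusted p = 0.0379) but lost the call on leaving out any of 7 mice (adjusted p up to 0.0942), and its sign turned to -0.05 after median-ratio scaling.

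Of 30 tested cathepsin and lysosomal genes 20 passed as higher (background 32.7%) and 1 as lower (1.23%), with a median of 0.35, and 3 and 1 after median-ratio scaling (background 6.92% and 4.25%). The lower gene was Man2b1 (-0.39), lysosomal alpha-mannosidase. Without WT replicate 1 the total was 13, and 2993 of all 13080 tested genes passed. Ctss, the cathepsin of antigen-presenting cells, measured 98.3 TPM in replicate 2, 20.6 to 31.2 TPM in other hSKP2-KI mice and 11.4 to 22.0 TPM in WT (log2 fold change 1.20, SE 0.39, adjusted p = 0.0363). Ctsb at 232, 109 to 119 and 67.2 to 80.2 TPM had the same order (0.85, SE 0.20, adjusted p = 0.0111), and Ctsl rose by 0.63 (adjusted p = 0.0243). None of these 3 passed after median-ratio scaling (0.158, 0.0879 and 0.270). With scaling and without replicate 2, Ctsb passed (0.0204), and Ctss (0.185) and Ctsl (0.522) did not. Ctss and Ctsl each lost the call on leaving out any of 4 mice (WT replicate 1 among them, which left Ctsl at an adjusted p of 0.0653).

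Of the partners of TREM2, 9 of 14 were tested. None passed after median-ratio scaling (background 6.92%), and 2 passed without WT replicate 1 (2993 of all 13080 tested genes). On TPM as deposited 6 passed as higher (background 32.7%). They included Syk (log2 fold change 0.79, adjusted p = 0.0234, and 0.0651 without WT replicate 1), Plcg2 (0.64, adjusted p = 0.00932) and the sheddase Adam17 (0.46, adjusted p = 0.0129). Trem1, the activating relative found on neutrophils and monocytes, was at most 0.0478 TPM. Of the osteopontin receptors and relatives, 10 of 13 were tested and 6 passed as higher against the same background, again with none after scaling. Cd44 (0.56, adjusted p = 0.0335), Itgav (0.52, adjusted p = 0.0247), Itga5 (0.81, adjusted p = 0.0122), Itga8 (0.82, adjusted p = 0.0184) and Itga9 (0.57, adjusted p = 0.0121) were among the 6, while the mean of Spp1 itself was lower in hSKP2-KI. Cd44 lost the call without any of 4 mice (adjusted p up to 0.0851) and Itgav without any of 3 (up to 0.0652).

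Among 14 tested tetraspanins and partners 9 passed as higher (background 32.7%), and 2 after median-ratio scaling (background 6.92%). These were Tspan8, an epithelial tetraspanin, at 106 to 172 TPM in hSKP2-KI and 36.4 to 59.3 TPM in WT (log2 fold change 1.50, SE 0.17, adjusted p = 0.000608, and 0.00421 scaled), and Igsf8, a CD9 partner (0.75, adjusted p = 0.00482, and 0.0272 scaled). Cd81, a close relative of CD9, rose by 0.53 (adjusted p = 0.00480, and 0.151 scaled), and Cd63 by 0.27 (adjusted p = 0.0461, and 0.986 scaled). Cd63 lost the call on leaving out any of 6 mice (adjusted p up to 0.120). The leukocyte tetraspanin Cd53 rose by 1.02 (adjusted p = 0.0137, and 0.0698 scaled). The epithelial markers summed to 1744 to 1915 TPM in hSKP2-KI, replicate 2 included, and 1449 to 1649 TPM in WT. Of 6 tested 3 passed as higher and none after scaling. Leaving out WT replicate 1 or 3 or hSKP2-KI replicate 1 or 4 left 1. In that order 2993, 3002, 3728 and 3007 of all 13080 tested genes passed. The part of epithelial cells in the level of Cd9 was not tested.

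Alternative activation, to which Chil3 belongs, was read from 16 genes, of which 9 were tested, 7 passed as higher (background 32.7%) and 1 as lower (1.23%), with 3 and 1 after median-ratio scaling (background 6.92% and 4.25%). Retnla (RELM-alpha), secreted in type 2 immune responses, measured 312 to 416 TPM in hSKP2-KI and 144 to 157 TPM in WT (log2 fold change 1.24, SE 0.10, adjusted p = 7.56e-05, and 0.000772 scaled). The eosinophil-associated ribonuclease Ear2 rose by 1.26 (adjusted p = 0.00461) and the lectin Clec10a by 1.04 (adjusted p = 0.00498), also after scaling (0.0206 and 0.0338). Mrc1, the mannose receptor, rose by 0.67 (adjusted p = 0.0234, and 0.149 scaled), and lost the call on leaving out any of 4 mice (up to 0.0604). Arg1, arginase 1, went the other way, from 9.66 to 21.8 TPM in WT to 2.92 to 9.30 TPM in hSKP2-KI (-1.29, SE 0.29, adjusted p = 0.00979, and 0.0109 scaled). Chil1 at most reached 1.42 TPM, in replicate 2.

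**Figure D4:**
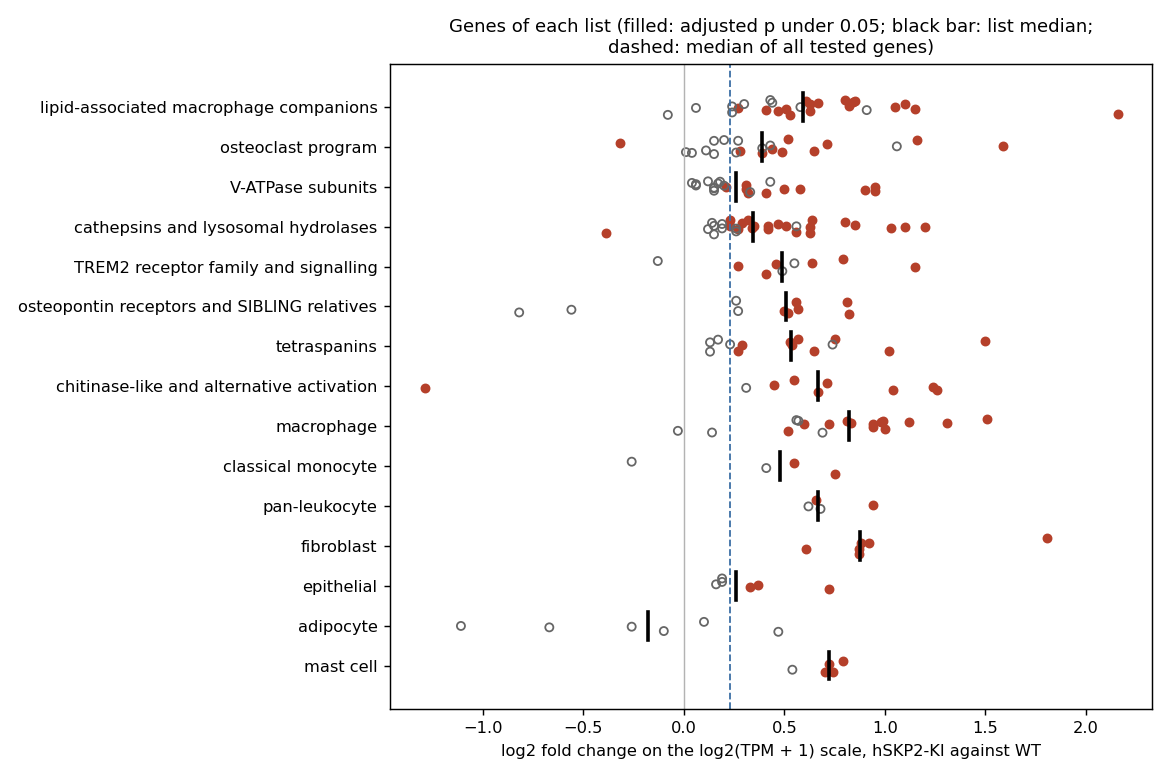
Log2 fold change of hSKP2-KI against WT on the log2(TPM + 1) scale for each tested gene of the lists, 1 row per list; filled points passed at an adjusted p under 0.05, the black bar is the list median and the dashed line the median of all tested genes, 0.23. The lipid-associated companions (median 0.59) and macrophage markers (0.82) lie to the right of the dashed line, V-ATPase subunits (0.26) on it, and the lowest filled point is Arg1 at -1.29.

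Markers of other cells moved with some of these genes, where 32.7% of all tested genes passed as higher, and 6.92% after scaling. All 6 fibroblast markers passed as higher (median log2 fold change 0.88, 2 after median-ratio scaling). All 6 were highest in replicate 2, as were 27.5% of all tested genes. Their sum was 1333 TPM in replicate 2, 759 to 989 TPM in other hSKP2-KI mice and 420 to 605 TPM in WT. Col1a1, the type I collagen chain, measured 129, 45.0 to 65.6 and 28.3 to 38.6 TPM in the same order, and the part of fibroblasts in the levels of Ctsk and Trem2 was not tested. The pan-leukocyte markers summed to 101, 47.6 to 58.5 and 26.1 to 56.0 TPM in that order, and 2 of 4 passed. Mast cell markers passed in 4 of 5 tested genes and classical monocyte markers in 2 of 4, none of either after scaling. Without WT replicate 1, 2 fibroblast, 0 pan-leukocyte and 2 mast cell genes passed, and 3 monocyte genes, since Ly6c2 then passed as lower (-0.67, adjusted p = 0.0130, against -0.26 and 0.514 with all mice). Pan-leukocyte genes passing numbered 4 without WT replicate 3 and 1 without WT replicate 2 or 4 or hSKP2-KI replicate 1, 2 or 3, monocyte genes 1 without hSKP2-KI replicate 2 or 4, and mast cell genes 2 without hSKP2-KI replicate 2 or 3. Of all 13080 tested genes, 4433 passed with all mice. Without WT replicates 1 to 4 the number was 2993, 4677, 3002 and 3511. Without hSKP2-KI replicates 1 to 4 it was 3728, 3033, 3623 and 3007. Neutrophil markers were low, with sums of 7.94 TPM in replicate 2, 5.26 to 10.7 TPM in other hSKP2-KI mice and 0.656 to 2.98 TPM in WT. These sums did not overlap, but the groups overlapped for Ltf and S100a8. Ltf measured 1.95 TPM in replicate 2, 3.54 to 9.31 TPM in other hSKP2-KI mice and 0.252 to 2.29 TPM in WT. S100a8 measured 0.455 to 3.48 TPM in hSKP2-KI and 0 to 0.861 TPM in WT (exact permutation p = 0.114, adjusted 0.314). Camp was listed at 0 throughout, and the only tested neutrophil gene, Ltf, passed (1.40, limma adjusted p = 0.0168, and 0.0656 scaled). The part of neutrophils in the level of Ltf was not tested. Adipocyte markers summed to 174 TPM in replicate 2, 81.8 to 670 TPM in other hSKP2-KI mice and 83.3 to 449 TPM in WT, and none of 6 passed, or 2 without hSKP2-KI replicate 4. Of the bone markers Bglap and Bglap2 were listed at 0, and 1 of 3 tested genes passed, Runx2 (0.61, adjusted p = 0.00779). Runx2 reached the filter for testing only through the hSKP2-KI mice (1.38 to 1.98 TPM, and 0.560 to 0.880 TPM in WT). No conclusion is therefore drawn from its p.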

How the data were processed

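RNA of ventral prostates from 4 hSKP2-KI and 4 WT mice was sequenced by the authors as poly-A-selected libraries with random-hexamer priming. They trimmed paired-end reads and mapped them to the mouse genome in CLC software; version and counting options are not given in the sources used here, and the submitters' processing notes name the builds mm10 and GRCm38. The authors deposited TPM, which are reads per transcript length scaled to the same total in each sample (1000000). The depth is therefore unknown, no count model was used, and 0 columns belonged to other samples.

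The labels gave each sample's genotype, and p-values measure the spread between these mice. The 13080 genes that reached 1 TPM in 4 or more of the 8 samples were fitted as log2(TPM + 1) with limma 3.58.1 (trend, R 4.3.3) and adjusted by the Benjamini-Hochberg method over all of them, with a threshold of 0.05. A fold change on this scale understates low genes. Named genes below the filter had a two-sided exact permutation test. On data simulated for this comparison 200 of 13080 genes were changed, and 179 were called. The share of real differences between these mice that the fit finds was not tested. The alternatives were a pseudocount of 0.1, other filters, 3 other scalings, a replicate block and leaving out each mouse.

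The 8 genes and all lists were chosen with earlier results of these data known. From each list the text could name up to 4 genes with the largest change past the threshold, genes below the filter with at least 5 TPM in hSKP2-KI replicate 2, a fixed set of known genes, the genes most correlated with the members, and those standing apart in replicate 2. Nceh1, Axl, Cthrc1, Sbno2 and Man2b1 were named after their values were seen. A result covered by this rule is not reported here. Promoters came from RefSeq (GRCm38.p6) and transcripts from GENCODE, aligned with biopython 1.88. Gene models on the other strand overlap Acp5 and Cd9, and another model overlaps Spp1 on its own strand; strandedness of the counting is not given, so these values may include their reads.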

Additional observations from a re-analysis of the deposited data

Results flagged for a closer look

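Within a genotype, a mouse was picked out when its gap to the nearest of the other 3, divided by the range of the 4 on the log2(TPM + 1) scale, exceeded Dixon's critical value for 4 samples. Of 182 groups (91 genes in 2 genotypes) 15 did so, 8 of them through hSKP2-KI replicate 2, where chance alone picks out about 1 in 20. Some of the 91 genes were chosen for their level in replicate 2, so neither the 15 nor the 8 through that mouse is read against chance. Of the 8 genes, whose values were used to choose them, Atp6v0d2 in hSKP2-KI is listed as a description, with a gap of 0.858 of the range and replicate 2 on top at 8.33 TPM against 1.54 to 2.05 TPM.

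Replicate 2 was also far above the other hSKP2-KI mice for Tyrobp (0.844), Cd68 (0.857), Lipa (0.846), Ctsb (0.882), Itga9 (0.902), Oscar (0.866) and S100a8 (0.902, at 3.48 TPM against 0.455 to 0.624 TPM). In other mice, Epcam was high in hSKP2-KI replicate 1 (0.871), Calcr in hSKP2-KI replicate 4 (1.00, at 0.0376 TPM) and Trem1 in hSKP2-KI replicate 3 (1.00, at 0.0214 TPM). In WT, Dcstamp was high in replicate 4 (0.876), Cd52 in replicate 3 (0.838) and S100a8 in replicate 1 (1.00, with the others listed at 0), and Oscar was low in replicate 1 (0.947, listed at 0).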

How the results depend on the processing

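Scaling changed the counts most. Of all genes 4433 passed on TPM as deposited, 1461 after median-ratio scaling, 1325 after quantile normalization, 1330 without the 20 most abundant genes, and 944 with median-ratio scaling and without hSKP2-KI replicate 2, an alternative chosen after seeing the data. In that order the genes passing in the lists around the 8 genes numbered 78, 21, 22, 21 and 19, and in the cell marker lists 32, 4, 3, 3 and 4, with 15 in the marker lists without a filter on low values. Higher calls made up 4272 of 4433 as deposited and 905 of 1461 after median-ratio scaling. Among the named genes that passed on TPM as deposited, Atp6v0d1 and Cd63 changed sign: Atp6v0d1 to -0.05, -0.04, -0.03 and -0.06 under the same 4 alternatives, and Cd63 to -0.05 under the last. Genes that had not passed could also change sign, as Mitf did from 0.11 to -0.10 after median-ratio scaling and Lpl from 0.43 to -0.13 under the last.

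The median log2 difference of the 8 genes was 1.20 and ranged from 0.70 (without hSKP2-KI replicate 2) to 1.39 on leaving out a mouse. Relative to macrophage genes their median difference was 0.54, ranging from 0.23 (without hSKP2-KI replicate 2) to 0.66, and -0.31 with Cd68 as the reference. Leaving out a mouse gave 2993 to 4677 genes in all, 53 to 75 in the companion lists and 17 to 29 in the marker lists, the lowest without WT replicate 1 in each case.

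The labels do not say whether replicate numbers pair the mice. Same-numbered deviations correlated at 0.22, -0.11, 0.17 and -0.01, and 4 of 8 mice matched their own number best, which does not settle it. With a replicate block 5128 genes passed, 87 in the companion and 35 in the marker lists. Of 71 named genes tested, median-ratio scaling left 28 calls as they were and 42 lost theirs. Whichever mouse was left out, 40 of the 71 kept their side of the threshold. The cause of these changes was not tested, and depth, which TPM do not keep, limits the low genes most.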
